A study of Mus musculus with 6 samples.

Results

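Genes for fatty acid oxidation and for the making of ketone bodies were examined in mouse colon with and without Setd2. The set was given as 37 gene symbols named for their function, by a rule that uses no measured value, though earlier results of these data were known when it was drawn up. Each gene was read from its brightest probe, the probe with the highest mean log2 intensity over the 6 arrays. By this rule 36 of the 37 genes, out of 19057 with a named probe, had a probe, and Acsl1 was not analysed here. A filter on dim probes, set at the 40th percentile (a mean log2 value of 0.96), left 34 of them, while Ppara and Cd36 fell below it. Of ketone body metabolism the measured set holds 1 enzyme, Bdh1, so the description is mainly one of fatty acid oxidation.

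Fatty acids enter a cell through carriers such as Cd36 and the Slc27 family and are joined to coenzyme A by acyl-CoA synthetases. Long chains then pass into mitochondria bound to carnitine, and a cycle of dehydrogenation, hydration, a further dehydrogenation and thiolysis shortens them, with the electrons handed to the respiratory chain by the electron transfer flavoprotein. Very long chains are first shortened in peroxisomes. Colonocytes are known for oxidising butyrate and other short-chain fatty acids from bacterial fermentation, and the nuclear receptors Ppara and Pparg are known regulators of many of these genes.

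Total RNA of whole colon from C57BL/6 mice aged 6 weeks was hybridised to Illumina bead arrays, with 3 arrays labelled control and 3 labelled Setd2 KO. Setd2 encodes the methyltransferase that trimethylates lysine 36 of histone H3. The labels give neither the alleles of the control animals nor how or in which cells Setd2 was disrupted, and they name replicates without saying that each came from a separate animal, so errors and p-values cover the spread between these arrays. In whole tissue, fewer cells of a type and less RNA per cell cannot be told apart. Signal of the brightest Setd2 probe was 434 ± 145 intensity units in control and 155 ± 41.9 in KO (SD, n = 3 each), a log2 difference of -1.47 (SE 0.44, adjusted p = 0.786) with no overlap, or -1.21 without control 2, an array described next. The 2 dimmer Setd2 probes differed by -0.0199 and -0.64, and by -1.72 and -0.93 without control 2, where the first of them was at the floor. Of the 19 absorptive colonocyte markers measured, 13 had log2 intensities above 8 on every array, among them Krt20, Cdx2, Vil1 and Lgals4, and 6 did not, among them Car4, Slc26a3 and Cdh17.

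One array stood apart, control 2. On it 41.6% of probes lay at 1, the lowest value deposited (0 on the log2 scale), against 33.5% to 36.9% on the other 5 arrays. Probes of a single gene also disagreed there. For the 1301 genes with at least 2 probes of mean log2 value above 6, the gap between the brightest and the second probe was taken on each array and compared with its median over the arrays. On control 2 this gap was off by more than 1 log2 unit for 44.0% of genes, and on each other array for 0.384% to 1.38%. Among the 11 fatty acid genes with such a pair, control 2 was the farthest array for 9 and was off by more than 1 for 8. Differences of the measured members and of the named related genes are therefore given with and without it.

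Across the 34 measured genes no change passed the test. In limma's fit across all 18918 features, with Benjamini-Hochberg adjustment, 0 of 34 genes passed an adjusted p of 0.05, where 0% of all features did. The adjusted p of the members lay between 0.753 (Slc27a2) and 1.00. At an unadjusted p under 0.05 there was 1 member, Slc27a2, against 4.3% of all features. KO means were higher for 22 members and lower for 12, so 64.7% were higher, against 44.6% of all features. Of the 25 members with a mean log2 value above 6, 16 were higher, against 44.2% of all features that bright. Over all 34 members the median log2 difference, KO minus control, was 0.10 (quartiles -0.17 and 0.44), against -0.085 over all features. Without control 1 the direction of the median turned, to -0.0975, with 15 of 35 members higher and 20 lower. Over all features the median was then -0.16, with 42.9% higher. Without control 2 the members' median was 0.13, and 21 were higher and 13 lower. Over all features it was then 0.0012, with 50.1% higher.

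Taken array by array, the median log2 intensity over the 34 members was 8.19, 8.43 and 8.95 in control and 8.92, 8.74 and 8.62 in KO. Control 3 thus lay above all 3 KO arrays, and control 1 and control 2 lay below them. Control 1 held the lowest of the 6 values for 13 members and control 2 for 12, while control 3 held the lowest for 0 and the highest for 9. Control 2 also held the highest value for 12 members. Of the 6818 features brighter than a mean log2 value of 6, control 1 was lowest for 15.0% and control 2 for 30.0%, while control 2 was highest for 3065 of them and control 3 for 630. The plot of all members by array shows this spread of the controls on both sides of the KO arrays.

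**Figure D1:**
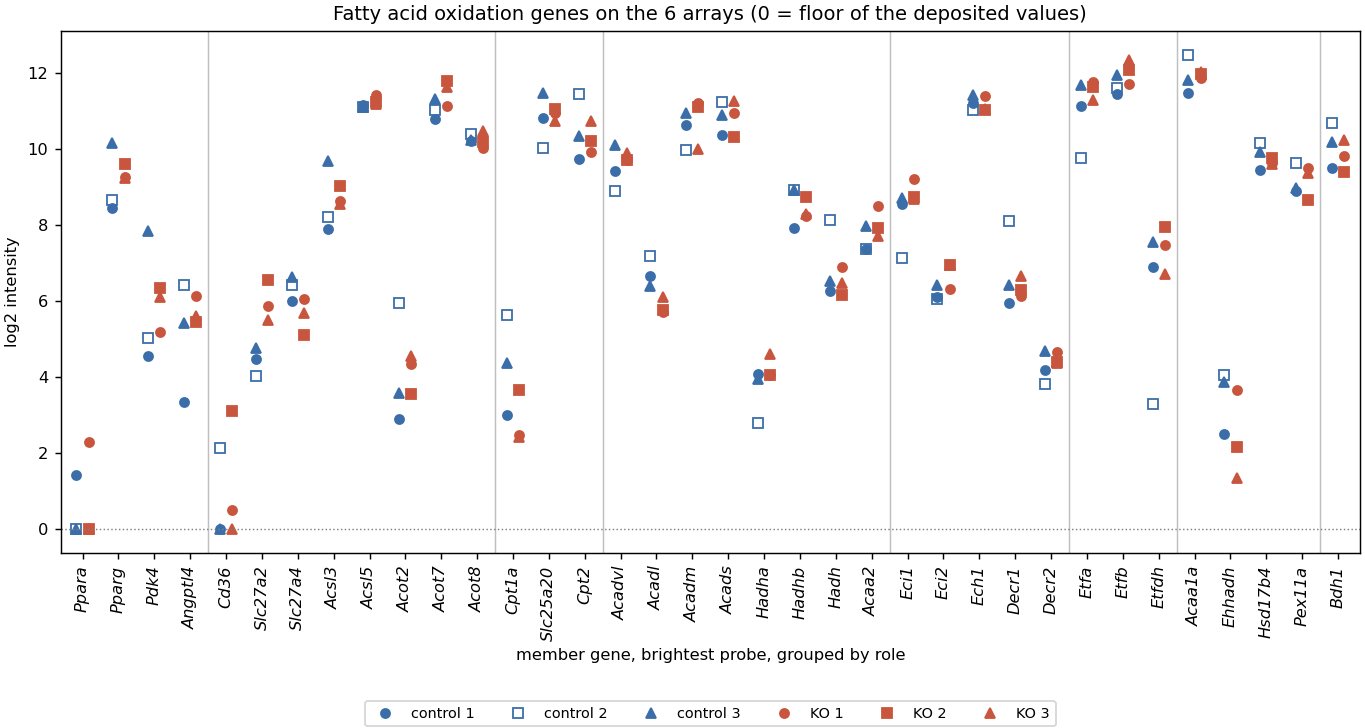
Log2 intensity of the brightest probe of 36 member genes on each of the 6 arrays (blue control, red KO, open squares control 2), grouped by role between the vertical lines. Control and KO arrays overlap for all measured genes but Slc27a2, Acsl5 and Acadl, and control 2 is often the farthest point, as for Etfdh at 3.29.

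The width of the intervals sets what these arrays can show. The 95% confidence interval of the log2 difference excluded 0 for 1 of 34 members, Slc27a2, before any adjustment for the number of genes. It lay within 1 log2 unit either way, a 2-fold change, for 2 members, Acot8 and Ech1. For the remaining members a 2-fold difference in at least 1 direction lay inside the interval. The estimates themselves were small, with 23 of 34 under 0.5 log2 units in size and 4 over 1 (Slc27a2, Etfdh, Cpt1a and Ehhadh).

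**Figure D2:**
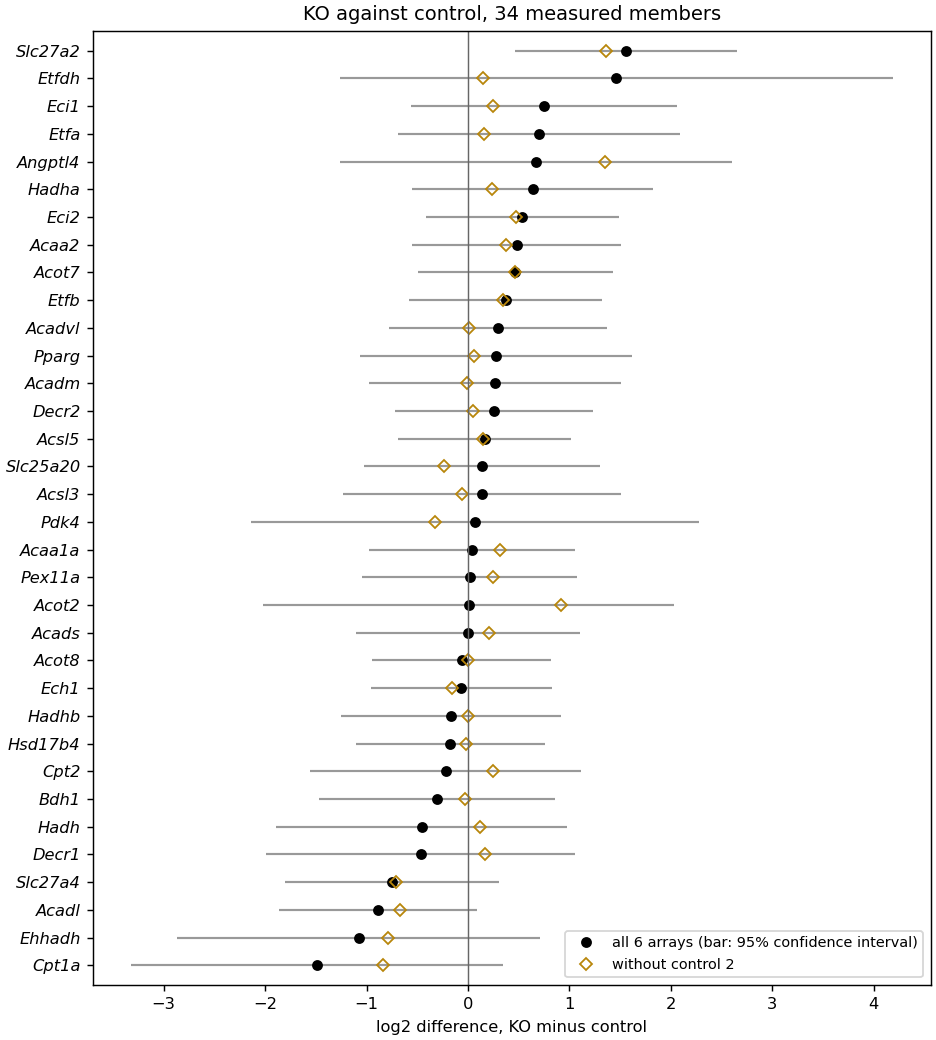
Log2 difference, KO minus control, for the 34 measured members with 95% confidence intervals (black points and grey bars, all 6 arrays) and the difference without control 2 (open diamonds). The estimates run from -1.49 (Cpt1a) to 1.56 (Slc27a2), and without control 2 Etfdh moves from 1.46 to 0.15.

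Control and KO arrays did not overlap for 3 of 34 members, against 8.68% of all features. Slc27a2 and Acsl5 were higher in KO, against 3.38% of features that separated in that direction, and Acadl was lower, against 5.31%. A count of 3 is near the background share, so it is no result about the set. Among the 25 brighter members 2 separated, Acsl5 and Acadl, against 7.13% of features that bright. With 1 array fewer the groups separate more easily: the count ran from 4 without KO 2, where 14.5% of features separated, to 14 without control 3, where 24.2% did. It was 5 without control 2, 6 without KO 3, 8 without KO 1 and 9 without control 1, where 16.3%, 18.2%, 15.9% and 22.1% of features separated.

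Of the genes for uptake, activation and deacylation, 5 of 7 measured were higher in KO and 0 passed the test. Slc27a2, a fatty acid carrier that also activates very long chains, measured 4.48, 4.03 and 4.75 in control and 5.88, 6.57 and 5.50 in KO on the log2 intensity scale used throughout. Every KO value was higher than every control value. The log2 difference was 1.56 (SE 0.46, 95% interval 0.46 to 2.66), a 2.94-fold higher level, with a limma adjusted p of 0.753 and an exact permutation p of 0.1, the smallest that 3 against 3 arrays can give. It was 1.36 without control 2, and over the leave-one-out fits it ran from 1.27 to 1.80. The second, dimmer Slc27a2 probe differed by 1.77 in the same direction, or 1.175 without control 2, but there KO 3 (3.75) lay below control 1 (3.87).

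Slc27a4, another carrier of the family and the main one of the intestine, measured 5.99, 6.43 and 6.64 in control and 6.04, 5.09 and 5.68 in KO. KO 1 lay above control 1, so the groups overlapped. The difference was -0.75 (SE 0.44), opposite in sign to that of Slc27a2, and was -0.71 without control 2. Cd36, a scavenger receptor that takes up long-chain fatty acids, did not pass the filter: its probe read the floor value for control 1, control 3 and KO 3 and measured 2.15 on control 2, 0.50 on KO 1 and 3.11 on KO 2.

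Acsl5, an acyl-CoA synthetase abundant in intestine, measured 11.17, 11.09 and 11.09 in control and 11.43, 11.23 and 11.18 in KO. The groups did not overlap, but the gap between the highest control and the lowest KO array was small and the difference was 0.16 (SE 0.36), or 0.15 without control 2. Its second probe measured 7.73, 5.89 and 8.11 in control and 8.70, 8.73 and 8.14 in KO, a difference of 1.28, or 0.61 without control 2. Acsl3, a synthetase of the endoplasmic reticulum and lipid droplets, differed by 0.13 (SE 0.57), and by -0.059 without control 2. The thioesterases, which release free fatty acids from coenzyme A, were the mitochondrial Acot2, with a difference of 0.0073 (SE 0.84), the cytosolic Acot7, with 0.47 (SE 0.40), and the peroxisomal Acot8, with -0.061 (SE 0.37). Without control 2 the last pair differed by 0.46 and -2e-04. Control 2 held the highest Acot2 value (5.96, against 2.89 and 3.57 for the other controls), and without it the difference was 0.92.

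The promoters of the 3 members whose groups did not overlap are shown because these genes separate in opposite directions. They are the 250 bases before the annotated start, 5′ to 3′ on the gene's strand, from RefSeq for GRCm38.p6. The windows are chr2:126552774-126553023 on the plus strand for Slc27a2, chr19:55253119-55253368 on the plus strand for Acsl5 and chr1:66863310-66863559 on the minus strand for Acadl. Capitals mark AGGTCA, the hexamer that nuclear receptors such as the PPARs bind, and GGGCGG, the GC box, on either strand; no marked matches overlap.
Slc27a2: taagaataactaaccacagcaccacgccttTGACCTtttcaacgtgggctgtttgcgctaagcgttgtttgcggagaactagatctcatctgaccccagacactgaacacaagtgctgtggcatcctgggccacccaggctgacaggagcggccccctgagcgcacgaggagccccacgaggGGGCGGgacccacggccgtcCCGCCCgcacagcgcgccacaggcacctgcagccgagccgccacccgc
Acsl5: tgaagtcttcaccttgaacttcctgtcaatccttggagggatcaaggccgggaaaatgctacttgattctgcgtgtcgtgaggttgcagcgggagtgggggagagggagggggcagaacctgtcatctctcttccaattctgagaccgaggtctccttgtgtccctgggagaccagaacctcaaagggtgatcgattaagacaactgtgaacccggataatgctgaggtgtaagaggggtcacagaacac
Acadl: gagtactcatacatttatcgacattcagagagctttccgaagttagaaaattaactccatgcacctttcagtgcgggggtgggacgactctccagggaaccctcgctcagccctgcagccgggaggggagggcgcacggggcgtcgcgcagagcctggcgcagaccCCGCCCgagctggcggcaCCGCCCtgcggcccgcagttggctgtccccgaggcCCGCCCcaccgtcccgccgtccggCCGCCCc

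Slc27a2 had 1 AGGTCA hexamer, read on the opposite strand 220 to 215 bases before the start, and 2 GC boxes. Acadl had 4 GC boxes and Acsl5 neither motif in this window. Promoter windows were found for 33 of the 37 listed genes. Some genes have several annotated starts, so these were 37 windows. AGGTCA was present in 7 of the 37 windows (those of Acadm, Acadvl, Cd36, Cpt1a, Pparg and Slc27a2) against 14.0% of all 32851 windows, and GGGCGG in 24 of the 37 against 32.7%. The direct repeat DR1 is a pair of AGGTCA hexamers 1 base apart and the consensus of PPAR sites. An exact match to it was present in 0 of the 37 against 0.0335%. Exact matches are too rare for 0 of 37 to be informative, and inexact repeats were not searched. These matches describe letters in the windows, and binding was not measured.

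In the carnitine shuttle, 1 of 3 genes was higher in KO, 2 were lower and 0 passed. Cpt1a, the outer-membrane transferase that limits the entry of long chains into mitochondria, measured 3.00, 5.64 and 4.38 in control and 2.48, 3.66 and 2.42 in KO. KO 2 lay above control 1, so the groups overlapped. The difference was -1.49 (SE 0.76, adjusted p = 0.940), the most negative of the set, and it was -0.83 without control 2 and -2.16 without control 1. The values are dim, and the second Cpt1a probe differed by -0.29, or -0.36 without control 2.

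Slc25a20, the carrier that exchanges acylcarnitine for carnitine across the inner membrane, measured 10.82, 10.03 and 11.46 in control and 10.94, 11.05 and 10.74 in KO. Control 2 was the lowest and control 3 the highest array, with the KO arrays between them. The difference was 0.14 (SE 0.48), and -0.23 without control 2. Cpt2, the inner transferase that hands the chain back to coenzyme A, measured 9.74, 11.44 and 10.35 in control and 9.93, 10.21 and 10.74 in KO, a difference of -0.22 (SE 0.56) that became 0.25 without control 2. Of its dimmer probes, one put control 2 highest (10.29) and the other put it lowest (9.07).

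Of the 8 genes of the mitochondrial cycle, 5 were higher and 3 lower in KO. The acyl-CoA dehydrogenases catalyse the first step for chains of different length. Acadl, the long-chain enzyme, measured 6.65, 7.19 and 6.40 in control and 5.70, 5.76 and 6.12 in KO. No KO value reached the lowest control value. The difference was -0.89 (SE 0.41, 95% interval -1.86 to 0.09, limma adjusted p = 0.940, exact permutation p = 0.1), and -0.67 without control 2. Its second probe differed by -0.68 with overlapping groups, and by -0.21 without control 2, its highest array (6.80). A further probe was at the floor on control 2 and measured 4.75 and 5.85 on the other control arrays and 4.73 to 6.06 in KO, so it did not show the separation. The mean over the 3 Acadl probes differed by 0.058.

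Acadm, the medium-chain dehydrogenase, measured 10.62, 9.97 and 10.93 in control and 11.22, 11.10 and 9.99 in KO. KO 3 lay next to control 2 at the low end, and the difference was 0.26 (SE 0.52), or -0.0049 without control 2. Acads, the short-chain dehydrogenase that acts on butyryl-CoA, gave the same mean on its brightest probe, 10.84 in both groups (SD 0.44 in control and 0.49 in KO, n = 3 each), a difference of 0.0019 (SE 0.46) that was 0.20 without control 2. Its 95% interval ran past 1 log2 unit, a 2-fold change, in both directions. Acadvl, the very-long-chain enzyme, differed by 0.30 (SE 0.45), and by 0.0076 without control 2.

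Hadha and Hadhb are the subunits of the trifunctional protein, which carries out the later steps on long chains. Hadha measured 4.08, 2.79 and 3.94 in control and 4.06, 4.06 and 4.61 in KO, a difference of 0.64 (SE 0.50) that was 0.23 without control 2, the lowest array. Hadhb differed by -0.17 (SE 0.45), and by -0.0032 without control 2. Hadh, the hydroxyacyl-CoA dehydrogenase of shorter chains, differed by -0.46 (SE 0.60) and by 0.12 without control 2. Acaa2, a thiolase of the matrix, had 4 probes, all higher in KO, with differences of 0.48, 1.52, 1.85 and 1.58. Without control 2 these were 0.38, 0.55, 0.94 and 0.42.

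Unsaturated chains need isomerases and reductases. Of these 5 genes 3 were higher in KO: Eci1 differed by 0.75 (SE 0.55), Eci2 by 0.54 (SE 0.40) and the peroxisomal reductase Decr2 by 0.26 (SE 0.41). The dienoyl-CoA isomerase Ech1 differed by -0.065 (SE 0.37), and the mitochondrial reductase Decr1 by -0.47 (SE 0.63). Control 2 held the lowest value of Eci1 (7.12, against 8.55 and 8.72 on the other control arrays) and the highest of Decr1 (8.10, against 5.94 and 6.43). Without it they differed by 0.24 and 0.17, while Eci2 differed by 0.47, Decr2 by 0.046 and Ech1 by -0.16.

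All 3 electron transfer genes had higher KO means, with a median log2 difference of 0.70, and 0 passed. Etfdh, the oxidoreductase that passes electrons to ubiquinone, measured 6.90, 3.29 and 7.55 in control and 7.47, 7.95 and 6.71 in KO. Apart from control 2 the groups overlapped, and the difference was 1.46 (SE 1.13) with that array and 0.15 without it. The second Etfdh probe measured 6.37 on control 2, its highest array, and differed by -0.36 with it and by 0.31 without it. Etfa and Etfb encode the subunits of the flavoprotein itself. Etfa differed by 0.70 (SE 0.58), and by 0.15 without control 2, which at 9.76 was its lowest array. Etfb differed by 0.37 (SE 0.39), and by 0.34 without control 2.

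Of the 4 peroxisomal genes, 2 were higher and 2 lower. Ehhadh, the L-bifunctional enzyme and a known PPAR target, measured 2.51, 4.06 and 3.86 in control and 3.67, 2.17 and 1.35 in KO. KO 1 lay among the control values, and the difference was -1.08 (SE 0.74), or -0.79 without control 2 and -0.56 without KO 3. Hsd17b4, the D-bifunctional enzyme, differed by -0.17 (SE 0.39), the thiolase Acaa1a by 0.039 (SE 0.42) and Pex11a, which promotes peroxisome division, by 0.015 (SE 0.44). Without control 2 these were -0.016, 0.32 and 0.24.

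Bdh1, the mitochondrial enzyme that interconverts acetoacetate and hydroxybutyrate, measured 9.49, 10.67 and 10.19 in control and 9.80, 9.38 and 10.24 in KO. The KO values spanned about the same range as control 1 and control 3, with control 2 highest. The difference was -0.31 (SE 0.48, 95% interval -1.46 to 0.85), -0.029 without control 2 and -0.62 without control 1. A second Bdh1 probe was at or near the floor on 5 arrays.

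Among the regulators, Pparg, a receptor with high levels in colonic epithelium, measured 8.44, 8.65 and 10.16 in control and 9.27, 9.60 and 9.22 in KO. Control 3 was the highest array and the KO arrays lay between it and the other controls, with a difference of 0.28 (SE 0.56). Without control 1 it was -0.040, without control 2 it was 0.061 and without control 3 it was 0.82. Ppara, the receptor that induces oxidation genes in fasting liver, did not pass the filter: it was listed at the floor on 4 arrays and measured 1.43 on control 1 and 2.28 on KO 1.

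Pdk4, a kinase that inhibits pyruvate dehydrogenase and so favours fatty acid use, measured 4.55, 5.01 and 7.83 in control and 5.17, 6.33 and 6.11 in KO. Control 3 alone was high, and the difference of 0.072 (SE 0.92) became 1.09 without control 3. It was -0.55 without control 1 and -0.32 without control 2, and its sign also turned without KO 2 or KO 3. Angptl4, a secreted inhibitor of lipoprotein lipase, measured 3.35, 6.41 and 5.42 in control and 6.14, 5.45 and 5.61 in KO. Control 1 alone was low. The difference of 0.67 (SE 0.81) became -0.18 without control 1 and 1.35 without control 2.

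Several genes thus read differently by probe. A second probe past the filter existed for 20 of the 34 members. It gave the same sign as the brightest probe for 15 and the opposite sign for 5 (Acsl3, Acot8, Cpt2, Etfb and Etfdh). Without control 2 the signs were the same for Acsl3, Cpt2, Etfb and Etfdh and still opposite for Acot8. They were then also opposite for Slc25a20 (-0.23 on the brightest probe, 0.32 on the second) and Pex11a (0.24 and -0.14). The clearest cases involved control 2, as the plot of all probes for 6 genes shows. For control 2 the second Acads probe gave the floor value, while it measured 7.23 to 8.26 elsewhere. The brightest Acads probe instead measured 11.24 on control 2, the highest of the control arrays. The brightest Acot7 probe measured 11.03 on control 2, between the other controls, and the other 3 measured 6.75, 4.22 and the floor there, below every other array. For 25 of the 34 members the difference was smaller in size without control 2, and for 7 its sign turned.

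**Figure D3:**
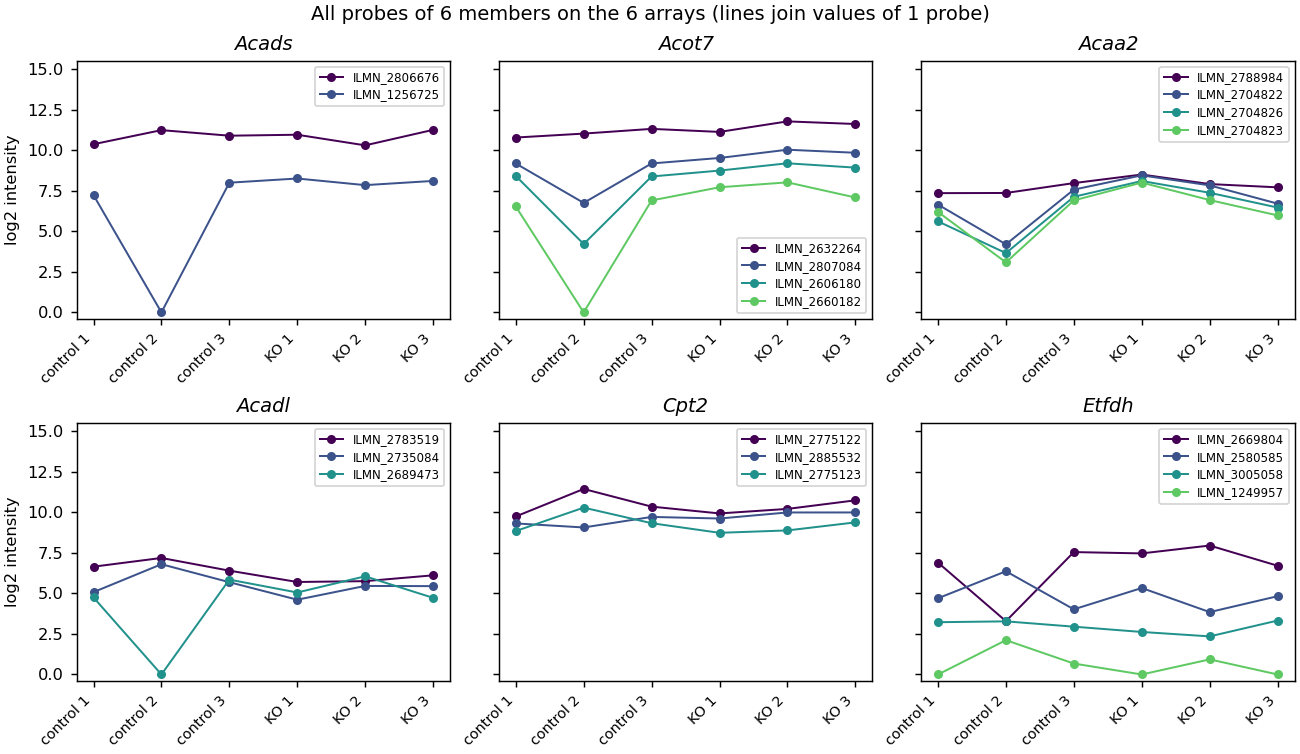
Log2 intensity of every probe of Acads, Acot7, Acaa2, Acadl, Cpt2 and Etfdh on the 6 arrays, with a line for each probe. On control 2 some probes drop, to the floor for 1 probe each of Acads, Acot7 and Acadl, while the brightest probes of Acads, Acadl and Cpt2 do not.

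Related genes outside the set were read from 8 lists, and 0 genes passed in any of them by limma's adjusted p. Limma's unadjusted p was under 0.05 for 1 of 40 genes for synthetases and 1 of 33 for storage, against 4.3% of all features. Except for the tricarboxylic acid cycle and the nuclear receptors, the sign of each list's median turned when some 1 array was left out. Ketone body genes were higher for 2 of 5 measured (median -0.020). Oxct1, which lets tissues use ketone bodies, measured 10.86 in control and 10.54 in KO on average, and Aacs, which uses acetoacetate for lipid synthesis, 10.14 and 10.20. Without control 2 their differences were -0.42 and 0.056. The second, dimmer Oxct1 probe went the other way and was higher in KO, by 1.25 with all arrays. Its difference without control 2 is not given here. Other peroxisomal genes were higher for 13 of 25 (median 0.074, and -0.25 without control 1). Scp2, a sterol and lipid carrier, and Crat, carnitine acetyltransferase, had mean differences of 1.21 and 1.31, with control 2 lowest for each (7.02 and 3.76), and 0.29 and 0.22 without it. Other synthetases, thioesterases and carnitine genes were higher for 13 of 40 (median -0.13). Pccb, a subunit of propionyl-CoA carboxylase, differed by -1.12, and Acot10 by -0.80. Without control 2 these were -0.55 and -0.68.

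Fatty acid synthesis and desaturation genes were higher for 8 of 21 (median -0.11), with the desaturases Fads2 and Fads1 at 0.60 and 0.37, or 0.45 and 0.57 without control 2. Genes for binding, lipolysis and storage were higher for 19 of 33 (median 0.10). Agpat2, which makes phosphatidic acid, differed by 1.02, or 0.32 without control 2, its lowest array. Apoa1, an apolipoprotein of enterocytes, ran from the floor on control 1 to 12.32 on KO 1. Its difference was 3.39 (SE 2.57), or 4.80 without control 2. Nuclear receptors and coregulators were higher for 11 of 25 (median -0.044). The coactivator Ppargc1b measured 9.06, 9.33 and 9.48 in control and 9.90, 9.71 and 9.81 in KO, a difference of 0.52 (SE 0.37), or 0.53 without control 2, with no overlap. The mitochondrial deacetylase Sirt3 did not overlap in the other direction (-0.77, SE 0.43, and -0.48 without control 2).

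Known PPAR targets outside the set were higher for 9 of 18 (median -0.058, from -0.37 without control 1 to 0.32 without control 2), among them Retsat at -0.57 (-0.17 without control 2) and again Fads2. Genes of the tricarboxylic acid cycle and of pyruvate entry had a median of 0.41, which was 0.091 without control 2, and 17 of 25 were higher in KO. Dlat, of the pyruvate dehydrogenase complex, differed by 0.60 (SE 0.37), or 0.58 without control 2, with no overlap. Pdhb of the same complex was at the floor on control 2 alone. It differed by 2.87 (SE 2.01) with that array and by 0.37 without it. Without control 2 the medians of the other lists were -0.18 for ketone body genes, 0.17 for peroxisomal genes, 0.013 for synthetases and carnitine genes, 0.046 for fatty acid synthesis, 0.41 for binding and storage and -0.066 for nuclear receptors. The plot of list medians sets these lists beside the members. The comparisons all use the same 6 arrays.

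**Figure D4:**
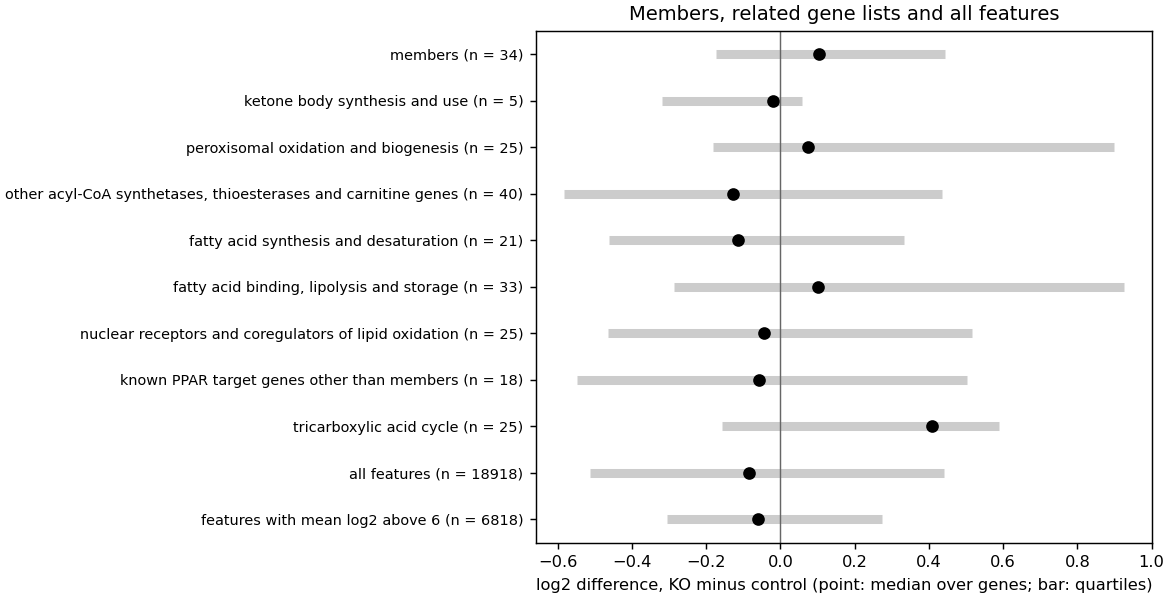
Median (point) and quartiles (bar) of the log2 difference, KO minus control, for the members, 8 related gene lists, all features and features brighter than a mean log2 value of 6. The median of the members is 0.10 and that of all features -0.085, and all quartile bars span 0.

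Markers of cell types moved between arrays too. The mean log2 level of 19 absorptive colonocyte markers was 10.17, 9.42 and 9.94 in control and 10.72, 10.55 and 10.16 in KO. Of them 15 were higher in KO, where 44.6% of all features were. Their summed level (the log2 of the summed intensities) ran from 15.99 to 16.33 in control and from 16.38 to 16.48 in KO without overlap. Taken singly, however, 0 of the 19 markers had groups that did not overlap, against 8.68% of all features. Car1, a carbonic anhydrase of mature colonocytes, was low on control 1 (8.85) and control 2 (8.11) and ran from 13.38 to 13.73 elsewhere. The mean log2 level of 11 adipocyte markers was 2.31, 5.21 and 5.34 in control and 3.29, 5.08 and 4.82 in KO. It was lowest on control 1, the lowest array also for 13 of the 34 members, and 3 of these markers were higher in KO. Their summed level ran from 7.56 to 10.93 in control and from 8.51 to 10.24 in KO. Adipoq, a secreted product of fat cells, was low on control 1 (1.37) and KO 1 (3.20) and ran from 6.84 to 8.58 elsewhere. Small intestinal enterocyte markers averaged 6.70 on KO 1 and 2.96 to 4.55 on the other arrays, 13 of 16 were higher in KO, and Fabp2 was at the floor on every array. Their median difference was 1.00 with all arrays and -0.037 without KO 1, and their summed level ran from 8.82 to 10.52 in control and from 9.64 to 13.28 in KO. The part of these markers in the members' differences was not tested.

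Summed over each list, the markers of the remaining cell types ranged as follows on the log2 scale. Goblet cell markers ran from 16.02 to 16.09 in control and from 15.98 to 16.06 in KO. Smooth muscle markers ran from 14.95 to 15.71 and from 15.35 to 15.93, with 13 of 14 higher in KO, against 44.6% of all features. Fibroblast markers ran from 11.49 to 12.09 and from 11.59 to 12.24, and macrophage markers from 8.07 to 10.48 and from 9.44 to 10.15. Endothelial markers ran from 9.85 to 10.66 and from 9.86 to 9.93. The summed levels of the groups overlapped for all of these lists. Marker by marker, groups did not overlap for 3 of 9 T cell markers, all 3 lower in KO. The same held for 4 of 14 smooth muscle, 2 of 10 goblet cell and 1 of 13 endothelial markers. Among fibroblast, macrophage and B and plasma cell markers there were 0 such genes. Over all features that share was 8.68%. T cell markers ran from 8.81 to 9.31 in control and from 7.86 to 8.11 in KO without overlap, with Cd5 at the floor on every array, and B and plasma cell markers from 8.24 to 10.20 and from 7.78 to 9.39, with Ms4a1 at the floor.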

How the data were processed

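The 6 Illumina arrays of mouse colon RNA were analysed. The authors deposited 1 linear intensity for each probe and array (background correction, normalization and software: not given in the sources used here). The arrays share 1 median (3.82) and 1 maximum (16715), and no value is below 1. A table of unnormalized values (12 columns) was not used, because its column names match no sample's labels. The members and gene lists were chosen with earlier results of these data known.

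Intensities were log2 transformed with no offset. Probes were named through the platform annotation: of 45281 probes, 34885 had 1 symbol, 18 several and 10378 none. Probes above the 40th percentile of mean log2 value (27168) were kept, with the brightest per gene, which left 18918 features. A group term was fitted with limma 3.58.1 (lmFit and eBayes, R 4.3.3), and 2-sided p-values were adjusted by Benjamini-Hochberg across the 18918 features (threshold 0.05). Differences are KO minus control, and errors of differences are standard errors. Exact permutation tests were 2-sided. The number of arrays limits the precision. Values on every array are given for members whose groups do not overlap, for those of mean log2 value above 6 and difference above 1 in size, and for 15 genes fixed by role. Of the related lists, the 2 genes of smallest p with mean log2 value above 6 are named. Named markers and further probes were chosen after their values were seen. Alternatives covered the filter, offset, floor, moderation, normalization, array weights, choice of probe, a replicate block and each array left out.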

Additional observations from a re-analysis of the deposited data

How the results depend on the processing

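No member passed the adjusted threshold under any of the 18 alternatives listed at the outset or the 2 added after seeing the data, and 0 features passed except with no filter on dim probes, where 11 did, 0 of them members. Features with an unadjusted p under 0.05 numbered 814, and 307 with the filter at the 60th percentile, 449 with log2(intensity + 16), 458 with values under 8 set to 8, 461 on second probes, 375 where no array was at the floor, and 671 to 1331 with 1 array left out, the highest without control 3. Members higher in KO numbered 22, and 15 to 21 with 1 array left out, where 42.6% to 50.1% of all features were higher. On second probes, which 20 members have, 14 were higher, against 50.9% of all features in that run. The members' median ran from -0.0975 (without control 1) to 0.21 (without KO 3) with 1 array left out and from 0.072 to 0.38 otherwise. The sign of 16 of the 34 members was the same under every alternative run (10 higher, 6 lower), and that of the other 18 turned under at least 1. The alternative on unnormalized values was not run.

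The labels do not say whether equal replicate numbers pair the arrays. Deviations from the group means correlated at 0.163, -0.0937 and 0.0372 for numbers 1, 2 and 3, and control 2 and control 3 correlated best with other numbers. With 3 arrays per group and control 2 standing apart, these values cannot settle whether the arrays were paired. With the replicate block 0 features passed (smallest adjusted p 0.939), 840 had an unadjusted p under 0.05, and the members' median stayed at 0.10.

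Signs turned as follows, and the cause was not tested beyond the array or probe left out. With array weights the differences were -0.27 (Pdk4), -0.032 (Acsl3), -0.15 (Slc25a20), 0.12 (Cpt2) and 0.0096 (Decr1). With log2(intensity + 16) they were -0.040 (Pdk4) and -0.12 (Acot2), and with values under 8 set to 8, -0.029 (Acot2). With the mean of all probes they were -0.22 (Acsl3), -0.046 (Acot2), 0.12 (Acot8) and 0.058 (Acadl). On second probes they were -1.09 (Acsl3), 0.16 (Acot8), 0.50 (Cpt2), -0.10 (Etfb) and -0.36 (Etfdh). With 1 array left out, differences ran from -0.040 to 0.82 (Pparg), -0.55 to 1.09 (Pdk4), -0.18 to 1.35 (Angptl4), -0.22 to 0.68 (Acsl3), -0.62 to 0.92 (Acot2), -0.18 to 0.042 (Acot8), -0.23 to 0.48 (Slc25a20), -0.60 to 0.25 (Cpt2), -0.0049 to 0.66 (Acadm), -0.23 to 0.27 (Acads), -0.81 to 0.12 (Hadh), -0.18 to 0.031 (Ech1), -0.91 to 0.17 (Decr1), -0.19 to 0.32 (Acaa1a) and -0.15 to 0.27 (Pex11a).

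Medians of other lists moved by more than the spread between arrays on second probes for ketone body genes (1.25), other synthetases and carnitine genes (0.42), PPAR targets (0.64) and endothelial markers (0.57). Of the ketone body genes only Oxct1 had a second probe, so 1.25 is the difference of that probe and not of a list. The smooth muscle median, 0.23, was 0.60 with array weights, 0.69 with the mean of all probes and 0.010 to 0.64 with 1 array left out. The peroxisomal median ran from -0.25 to 0.17 with 1 array left out.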
